A study of Mus musculus with 8 samples.

Results

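The histone genes of mouse mesenchymal stem cells (MSc) were examined in 8 RNA sequencing libraries, each from a separate mouse. Members were all genes of the deposited table whose name follows the histone nomenclature for H1, H2A, H2B, H3 or H4, and 74 of the 49782 distinct gene names in the table did so. They comprised 57 replication-dependent genes, 7 replacement genes, 8 germ line genes and 2 others, an H3.3 gene copy (H3f3c) and a non-coding antisense gene (H3f3aos). The names were matched without regard to any measured value.

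The MSc came from femora and tibiae of 4 wildtype mice (C57Bl6/J) and 4 Has-tKO mice. Has-tKO combined constitutive knockout of Has1 and Has3 with a Cre-mediated deletion of Has2, and together these remove the 3 hyaluronan synthase genes, whose enzymes make the matrix polysaccharide hyaluronan. Cells of both genotypes were grown for 4 passages, received 4-hydroxytamoxifen for 48 h in passages 2 and 3 to activate Cre, and were collected on day 7 of osteogenic differentiation. The driver of the Cre transgene was not given in the sources used here, and nothing there says that the wildtype mice carried Cre. The study asks what loss of hyaluronan synthesis does to osteogenic differentiation.

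Histones are the proteins around which DNA is wound, with H2A, H2B, H3 and H4 forming the core particle and H1 binding the linker between particles. Replication-dependent histone genes lie in clusters and supply new chromatin during S phase. Their mRNAs carry no poly(A) tail and end in a stem-loop that is bound by the protein SLBP. Replacement histones are made outside S phase from polyadenylated mRNAs and take over chromatin positions in cells that divide little. Removal of ribosomal RNA, used here on 100 ng RNA, keeps both kinds of mRNA, whereas selection on poly(A) tails loses most of the first kind.

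The stem-loop letters show how alike the replication-dependent mRNAs are, and they are rare outside this class. Transcripts were found in the GENCODE M21 annotation for 70 of the 74 members and searched on the sense strand for GG, any 2 bases, CTTTT, any base, AG, any 2 bases and CC. The pattern was present in 38 of 55 replication-dependent members found, in H2ax alone of the 7 replacement members, and in 89 of all 55450 annotated genes (0.161%). Of the 17 replication-dependent members without it, 7 had only transcripts annotated as far as the coding sequence. The sequences below give 1 example of each of the 7 forms, as DNA letters with the stem-loop in capitals and the flanking bases in lower case.
H2bc8: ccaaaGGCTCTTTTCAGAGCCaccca
H4c18: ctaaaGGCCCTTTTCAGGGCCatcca
H2bc12: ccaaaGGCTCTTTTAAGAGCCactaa
H4c9: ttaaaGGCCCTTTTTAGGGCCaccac
H4c2: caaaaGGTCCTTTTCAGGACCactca
H2ax: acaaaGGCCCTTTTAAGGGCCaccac
H2ac20: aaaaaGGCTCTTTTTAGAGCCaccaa
The form of H2bc8 was shared by 22 members, among them H1f2, H2ac24, H3c2 and H3c4. The form of H4c18 was carried by 7 members, all of them H4 genes, and that of H2bc12 by 6. H2ax, the variant phosphorylated at DNA breaks, is a replacement member with a stem-loop and was the single member with its form.

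The same likeness limits how well reads can be assigned to single genes. In replication-dependent members a median of 49.3% of all 50-base windows of the transcripts also occurred in another annotated gene, overlapping gene models included, against a median of 6.14% in replacement members. H2A genes shared the most, with a median of 73.0% over 16 genes, and H1 genes the least, with a median of 1.13% over 4 genes. For H2ac13 the share was 90.1%, and the gene that shared the largest number of its windows was H2ac7. For H4c18 the share was 85.6%, and that gene was H4c17. The counting of reads that fit several genes was not given in the sources used here. Values of single H2A, H2B, H3 and H4 genes are therefore uncertain, and family sums are given beside them.

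**Figure D1:**
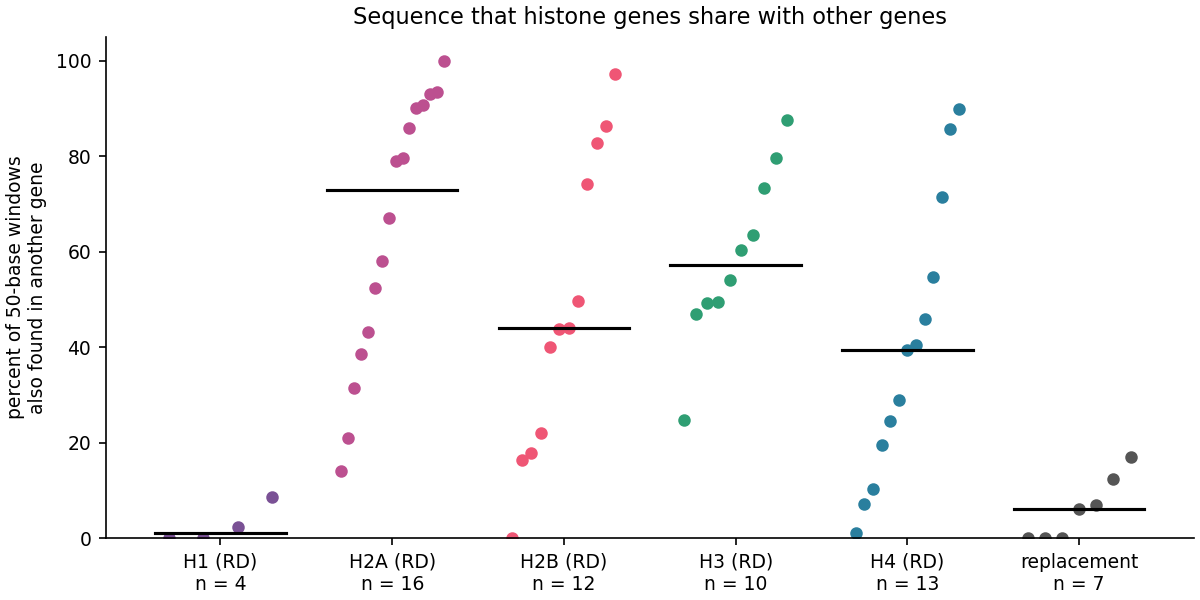
Share of the 50-base windows of each gene's annotated transcripts that also occur in another annotated gene, in percent, by histone family (RD, replication-dependent). Each point is 1 gene, the line is the family median and n is the number of genes found in the annotation. The H2A median is 73.0%, while no replacement gene exceeds 16.9%.

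Promoters were available in RefSeq (GRCm38.p6) for 64 of the 74 members, as 250 bases before to 50 bases after the annotated start. Motif letters were counted on both strands, and the motifs do not contain one another. CCAAT was present in every one of the 16 H2A, 11 H2B, 8 H3 and 4 H1 replication-dependent promoters, and in 3 of 12 H4 promoters (25%). It was present in 4 of 6 replacement promoters (66.7%) and in 41.1% of all 27025 promoters. TATAAA was present in 56.9% of replication-dependent promoters, in 1 of 6 replacement promoters (16.7%), and in 15.7% of all promoters. The octamer letters ATTTGCAT were found in 11 of 27 H2A and H2B promoters and in none of the 24 H1, H3 and H4 replication-dependent promoters. They were found in 1 of 6 replacement promoters (16.7%) and in 1.97% of all promoters. A match describes these letters only and was not tested as a binding site.

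Promoters of 3 members are shown because the results below turn on them: H2ac13 and H1f0, the members called in 1 of the 2 ways of scaling, and H4c18, the replication-dependent gene with the highest mean level. Capitals mark CCAAT (or its reverse complement ATTGG) and TATAAA. H2ac13 lies at chr13:21716162-21716461 on the plus strand and holds CCAAT letters 4 times. This window overlaps that of H2bc13 on the opposite strand by 272 of 300 bases, so both genes share their start region. H4c18 lies at chr13:21832148-21832447 on the minus strand, with TATAAA 1 time. H1f0 lies outside the clusters, at chr15:79027962-79028261 on the plus strand, and its window holds none of the 3 motifs.
H2ac13: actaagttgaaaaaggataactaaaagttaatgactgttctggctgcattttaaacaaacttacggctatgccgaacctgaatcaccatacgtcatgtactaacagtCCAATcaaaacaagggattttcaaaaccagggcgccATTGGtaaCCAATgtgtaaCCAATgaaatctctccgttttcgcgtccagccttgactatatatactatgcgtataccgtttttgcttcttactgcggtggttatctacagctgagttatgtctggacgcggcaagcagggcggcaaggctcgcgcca
H4c18: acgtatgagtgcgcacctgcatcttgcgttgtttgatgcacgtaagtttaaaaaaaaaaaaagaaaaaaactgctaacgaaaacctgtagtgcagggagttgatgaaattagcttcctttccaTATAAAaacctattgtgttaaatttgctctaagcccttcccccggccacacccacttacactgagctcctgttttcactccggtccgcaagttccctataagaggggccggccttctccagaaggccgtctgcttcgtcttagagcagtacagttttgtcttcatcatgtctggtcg
H1f0: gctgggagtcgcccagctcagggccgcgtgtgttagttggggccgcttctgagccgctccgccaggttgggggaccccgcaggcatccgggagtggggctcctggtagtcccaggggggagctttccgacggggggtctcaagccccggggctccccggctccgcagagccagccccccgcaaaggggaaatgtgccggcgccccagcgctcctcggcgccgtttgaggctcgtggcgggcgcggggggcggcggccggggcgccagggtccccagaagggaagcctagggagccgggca

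All values are FPKM, fragment numbers divided by transcript length and by library size. The libraries summed to between 198221 and 259871 FPKM, their depth is unknown, and within a group they correlated at 0.905 to 0.978 (Pearson, log2 scale). The library wildtype 1 stood apart, with 61.5% of its FPKM on loci that carry no gene name and 8327 genes at 1 FPKM or more. The other 7 libraries had 45.4% to 56.4% on such loci and 9677 to 10353 genes at 1 FPKM or more, Has-tKO 4 being the highest of the 7 on the first measure. The size factor that median-ratio scaling assigns (a single divisor per library, from loci above 0 in all 8) was 0.660 for wildtype 1 and 0.984 to 1.14 for the others. Unscaled, the median log2 fold change of all genes tested was 0.16, and after scaling it was -0.03, a shift that each result below has to be read against. Has3 ranged from 0.236 to 0.466 in wildtype and from 0.15 to 0.663 FPKM in Has-tKO, so it does not separate the groups, and no locus carries the names Has1 or Has2. Groups are therefore called by their labels throughout.

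Few histone genes passed the test between the genotypes. Of the 74 members, 58 had at least 1 FPKM in at least 4 libraries and were tested (49 replication-dependent, all 7 replacement, H2bc1 and H3f3c). In the unscaled comparison 1 of the 58 was called higher in Has-tKO, the replication-dependent gene H2ac13, and none was called lower (limma on log2(FPKM + 1), two-sided, Benjamini-Hochberg over 9915 genes, adjusted p below 0.05). Over all genes tested, 1.58% were called higher and 0.192% lower (1.78% either way), so the share of members called, 1.72%, lay near the background. After median-ratio scaling no member was called higher, against 1.38% of all 9784 genes tested, and 1 was called lower, the replacement gene H1f0, against 1.32% (2.70% either way). At an unadjusted p below 0.05, 15 members were higher and 1 was lower unscaled (14.4% and 2.30% of all genes), and 8 were higher and 4 lower scaled (8.44% and 10.3%).

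Among members tested, 11 had all 4 Has-tKO values above all 4 wildtype values (19%, against 12.0% of all genes tested), and H1f0 alone had all below (1.72%, against 1.53%). The 11 were H2ac13, H2ac14, H2ac22, H2aw, H2bc9, H2bc13, H2bc22, H2bc24, H3c3, H4c11 and H3f3c. H2bc9 reached 1 FPKM in its Has-tKO libraries only (at most 0.945 FPKM in wildtype), so the filter fixed its lack of overlap. It also counts among the members higher at limma's unadjusted p below 0.05. After scaling, 2 stayed fully above, H3c3 and H3f3c (3.45%, against 5.57%), and 3 lay fully below, H1f0, H3f3a and H2bc8 (5.17%, against 7.73%).

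**Figure D2:**
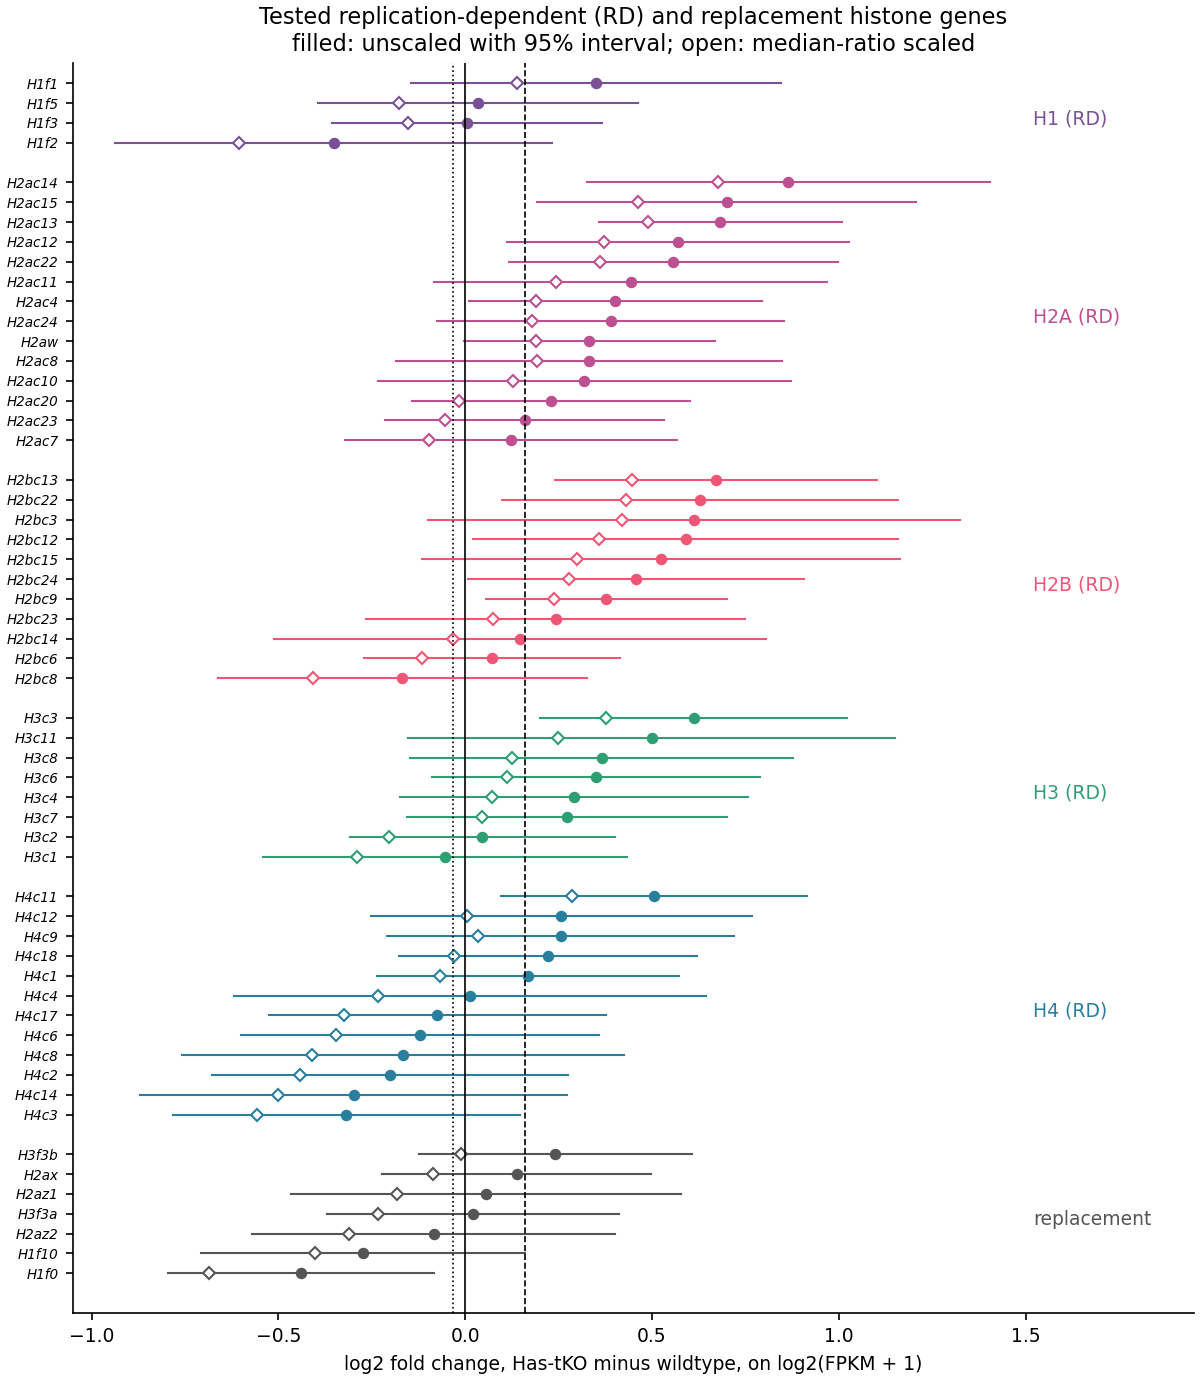
Log2 fold change (Has-tKO minus wildtype, on log2(FPKM + 1)) of the 49 replication-dependent (RD) and 7 replacement genes tested. Filled points with bars are unscaled estimates with 95% intervals, open diamonds are estimates after median-ratio scaling, and dashed and dotted lines are the medians of all genes (0.16 unscaled, -0.03 scaled). All 14 H2A genes lie above 0 unscaled, while the 12 H4 genes divide into 6 above and 6 below, against 73.3% of all genes tested above 0. Scaled, 11 of the 14 H2A genes and 3 of the 12 H4 genes lie above 0, against 44.8% of all genes tested.

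The families of replication-dependent genes lay at different distances from the median of all genes. H2A and H2B, which pair as dimers in the nucleosome, had median log2 fold changes of 0.40 (14 genes) and 0.46 (11 genes), 0.24 and 0.30 above the median of all genes. H3 stood 0.16 above it (median 0.32, 8 genes). H1 stood 0.14 below it (median 0.02, 4 genes), and H4 0.19 below it (median -0.03, 12 genes). Scaled, the medians were 0.19 for H2A, 0.28 for H2B, 0.09 for H3, -0.16 for H1 and -0.28 for H4, so the sign for H1 turned with scaling and that for H4 was negative in both.

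The distance from all genes held for H2A and H2B when each library was left out in turn (0.17 to 0.31 for H2A, 0.22 to 0.42 for H2B). For H4 it ran from -0.27 to 0.06, and the positive value was that without wildtype 1. For H3 it ran from -0.06 to 0.26, and the negative value was that without Has-tKO 4. Leaving out both libraries gave 0.21 for H2A, 0.10 for H2B, 0.05 for H3 and -0.16 for H4. Because the genes of a family share many windows (a median of 73.0% in H2A and 44.0% in H2B), they are not independent measurements, and no test was made over a family.

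H2ac13 encodes a replication-dependent H2A and measured 1.76, 1.42, 1.20 and 1.56 FPKM in wildtype 1 to 4. In Has-tKO 1 to 4 it measured 2.58, 2.91, 3.06 and 3.38 FPKM. All 4 Has-tKO libraries were higher than every wildtype library, with means of 2.98 ± 0.335 and 1.48 ± 0.234 (SD, n = 4 each). The unscaled log2 fold change was 0.68 (SE 0.15, limma adjusted p = 0.044). After scaling it was 0.49 and not called (limma adjusted p = 0.165). Of the 8 leave-one-out fits it was called in 1 unscaled and 1 scaled, both without wildtype 1 (0.73 and 0.65, limma adjusted p = 0.022 and 0.030). In the others limma's adjusted p reached 0.153 unscaled and 0.350 scaled.

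H2bc13, the H2B gene that shares its start region with H2ac13, measured 3.73, 5.28, 6.20 and 6.93 in wildtype and 9.70, 6.99, 10.6 and 10.1 FPKM in Has-tKO. The groups did not overlap, the nearest values being wildtype 4 and Has-tKO 2. Its log2 fold change was 0.67 (SE 0.20) and missed the threshold (limma adjusted p = 0.104), and scaled it was 0.45 (limma adjusted p = 0.157). H2bc13 was named after its values were seen, as were H2ac14, H3f3c and H2bc1.

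H2ac14 measured 1.23, 2.44, 3.15 and 3.53 in wildtype and 3.95, 5.23, 4.74 and 7.99 FPKM in Has-tKO. Its log2 fold change of 0.87 was the largest of the replication-dependent members tested (SE 0.25, limma adjusted p = 0.096), with wildtype 1 the lowest and Has-tKO 4 the highest library. H2ac15, with 6.18 to 12.3 in wildtype and 11.4 to 21.8 FPKM in Has-tKO, had a change of 0.70 (limma adjusted p = 0.147). The most abundant H2A gene, H2ac20, differed by 0.23 unscaled and -0.02 scaled, with 12.3 ± 2.19 in wildtype and 14.5 ± 1.64 FPKM in Has-tKO (n = 4 each, limma adjusted p = 0.514). H2ac24 lay between these, at 0.39 unscaled (limma adjusted p = 0.377), 0.18 scaled and 0.22 without wildtype 1.

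Among H2B genes, H2bc12 had 4.44 FPKM in wildtype 1, 9.44 to 12.2 FPKM in the other wildtype libraries and 10.8 to 16.3 FPKM in Has-tKO, a change of 0.59 that was 0.32 without wildtype 1 (limma adjusted p = 0.279 and 0.296). H2bc15 differed by 0.52, and 0.23 without wildtype 1 (limma adjusted p = 0.391 and 0.584). H2bc8 measured 7.97, 15.5, 15.6 and 15.3 in wildtype and 13.1, 11.8, 13.2 and 8.71 FPKM in Has-tKO, so 3 wildtype libraries lay above all of Has-tKO and wildtype 1 lay below. Its change was -0.17 unscaled (limma adjusted p = 0.734), -0.41 scaled and -0.39 without wildtype 1 (limma adjusted p = 0.156 and 0.162).

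Replication-dependent H3 genes were among the most abundant members. H3c11 measured 14.2 to 16.6 in wildtype and 15.1, 17.2, 18 and 48.0 FPKM in Has-tKO, so its change of 0.50 (SE 0.30, limma adjusted p = 0.423) came to 0.13 without Has-tKO 4. H3c2 was nearly level, with 17.1 ± 1.34 in wildtype and 17.8 ± 3.05 FPKM in Has-tKO (n = 4 each). Its log2 fold change of 0.05 (limma adjusted p = 0.905) was -0.20 scaled. H3c6 differed by 0.35 (limma adjusted p = 0.404), by 0.20 without Has-tKO 4 and by 0.11 scaled.

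H4 genes held the largest share of replication-dependent FPKM. H4c18, the highest, had 20.8, 20.2, 24.0 and 23.3 in wildtype and 22.9, 20.7, 26.3 and 35.4 FPKM in Has-tKO. Has-tKO 1 and 2 lay within the wildtype range and Has-tKO 3 and 4 above it. The change was 0.22 unscaled and -0.03 scaled (limma adjusted p = 0.561 and 0.955). H4c17 and H4c12 differed by -0.07 and 0.26 unscaled (limma adjusted p = 0.880 and 0.602), with group ranges that overlapped. Without Has-tKO 4 the change of H4c18 was 0.075, and without wildtype 4 that of H4c12 was 0.085.

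Linker histone H1f2 gave the clearest case of 1 library. It measured 43.2 FPKM in wildtype 1, 16.5 to 17.8 FPKM in the other wildtype libraries and 15.3 to 17.9 FPKM in Has-tKO. Its change of -0.35 (limma adjusted p = 0.528) was -0.03 without wildtype 1. H1f1 and H1f5 differed by 0.35 and 0.03 (limma adjusted p = 0.462 and 0.944), and H1f1 by 0.15 without Has-tKO 4 and 0.53 without Has-tKO 1.

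**Figure D3:**
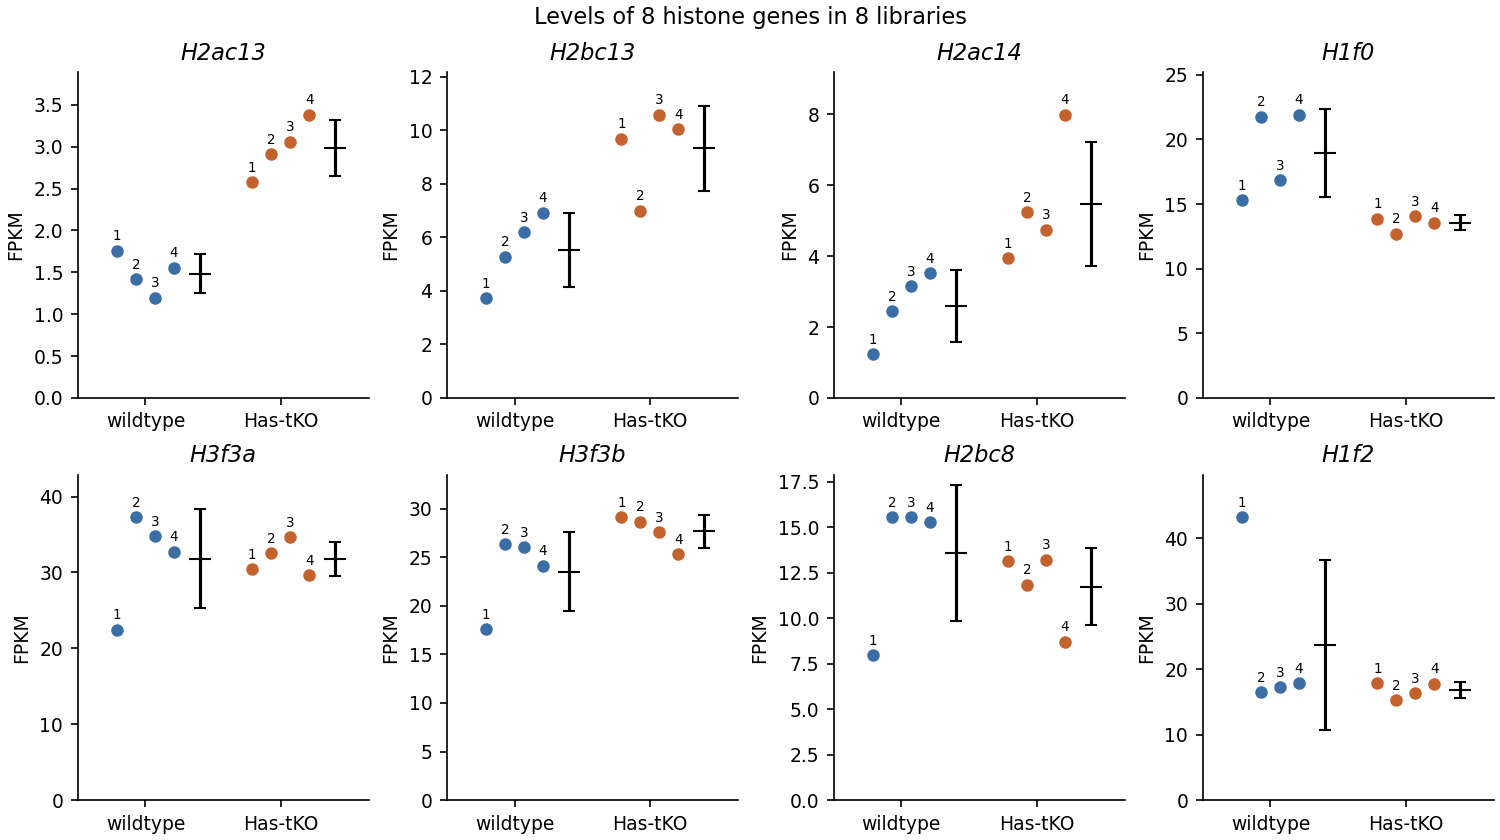
FPKM of 8 histone genes in each library, numbered by replicate, with the mean and SD of each group (n = 4) as black bars. Unscaled, H2ac13, H2bc13 and H2ac14 are higher in every Has-tKO library than in any wildtype library (after scaling their ranges overlap), H1f0 is lower in every one, and wildtype 1 stands apart for H1f2 (43.2) and H2bc8 (7.97).

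The replacement genes as a class lay below the median of all genes, though 1 of the 7, H3f3b, lay above it unscaled and scaled. Their median log2 fold change was 0.02, 0.14 below all genes, and scaled it was -0.23, 0.20 below all genes, with all 7 negative. Scaled, 5399 of all 9784 genes tested were negative too. When each library was left out in turn, the distance stayed between -0.17 and -0.12.

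H1f0, a linker histone that accumulates in cells that stop dividing, measured 15.3, 21.7, 16.8 and 21.9 in wildtype and 13.9, 12.7, 14.1 and 13.6 FPKM in Has-tKO. Every Has-tKO library was lower than every wildtype library, with means of 13.5 ± 0.591 and 18.9 ± 3.38 (SD, n = 4 each). The log2 fold change was -0.44 unscaled (SE 0.16, limma adjusted p = 0.192) and -0.69 scaled (SE 0.13, limma adjusted p = 0.030). Without wildtype 1 it was called both ways, at -0.53 unscaled and -0.62 scaled (limma adjusted p = 0.039 and 0.033). The scaled call was kept in 2 of 8 leave-one-out fits, those without wildtype 1 or wildtype 3, with adjusted p of up to 0.116 in the others.

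The H3.3 protein is encoded by both H3f3a and H3f3b and is deposited at active genes throughout the cell cycle. H3f3a, the member with the highest mean, measured 22.5, 37.3, 34.8 and 32.7 in wildtype and 30.4, 32.6, 34.6 and 29.6 FPKM in Has-tKO. Its means of 31.8 ± 6.5 and 31.8 ± 2.24 coincided (log2 fold change 0.02, 95% interval -0.37 to 0.41), and scaled the change was -0.23 (limma adjusted p = 0.227). H3f3b had 17.6 to 26.3 in wildtype and 25.3 to 29.1 FPKM in Has-tKO, a change of 0.24 unscaled and -0.01 scaled (limma adjusted p = 0.491 and 0.964), and 0.11 unscaled without wildtype 1.

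The H2A.Z genes H2az1 and H2az2 differed by 0.05 and -0.08 (limma adjusted p = 0.925 and 0.875). H2az1 was low in wildtype 1, at 7.22 FPKM, against 11.4 to 16.7 FPKM in the other wildtype libraries and 10.9 to 14.9 FPKM in Has-tKO. H2ax differed by 0.14 (limma adjusted p = 0.701). H1f10, a linker histone made outside S phase, lay near 1 FPKM and differed by -0.27 (limma adjusted p = 0.505).

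H3f3c is an H3.3 gene copy that shares 73.8% of its windows, the largest number of them with H3f3a. It measured 5.10, 6.91, 5.04 and 7.69 in wildtype and 9.75, 9.85, 10.6 and 42.9 FPKM in Has-tKO. Its change of 1.14 missed the threshold (SE 0.39, limma adjusted p = 0.159), and without Has-tKO 4 it was 0.64. Of the germ line genes, H2bc1 alone was tested, at 0.718 ± 0.278 in wildtype and 1.42 ± 0.408 FPKM in Has-tKO (n = 4 each, log2 fold change 0.49, limma adjusted p = 0.191). H1f7, H1f8 and H2bw2 were at 0 in every library.

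Summed over the class, replication-dependent genes gave 355, 324, 374 and 351 FPKM in wildtype 1 to 4 and 372, 336, 434 and 512 FPKM in Has-tKO 1 to 4. Replacement genes summed to 76.3, 112, 106 and 101 in wildtype and 99.3, 93.8, 101 and 95.7 FPKM in Has-tKO. Both sums overlapped between genotypes. After scaling, replacement sums ran from 100.4 to 116 in wildtype and from 81.9 to 91.3 in Has-tKO without overlap, and replication-dependent sums still overlapped. Divided within each library, which needs no scaling, replication-dependent over replacement FPKM came to 4.65, 2.89, 3.54 and 3.49 in wildtype and 3.74, 3.58, 4.30 and 5.35 in Has-tKO. The means were 3.64 ± 0.736 and 4.24 ± 0.797 (SD, n = 4 each), with wildtype 1 and Has-tKO 4 the 2 highest libraries, and without wildtype 1 every Has-tKO library exceeded the remaining wildtype libraries (3.31 ± 0.363, n = 3).

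By family, summed H2A ran from 73.0 to 101 FPKM in Has-tKO, above all wildtype libraries (49.96 to 68.8 FPKM), but the ranges overlapped after scaling. H2A plus H2B over H3 plus H4 was 0.361, 0.702, 0.601 and 0.649 in wildtype and 0.747, 0.715, 0.719 and 0.611 in Has-tKO. Wildtype 1 was the low value on this ratio, which without it averaged 0.651 ± 0.0504 (n = 3) against 0.698 ± 0.0598 in Has-tKO. Summed H1 was 51.2 FPKM in wildtype 1 and 24.0 to 31.9 FPKM in the other 7 libraries.

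**Figure D4:**
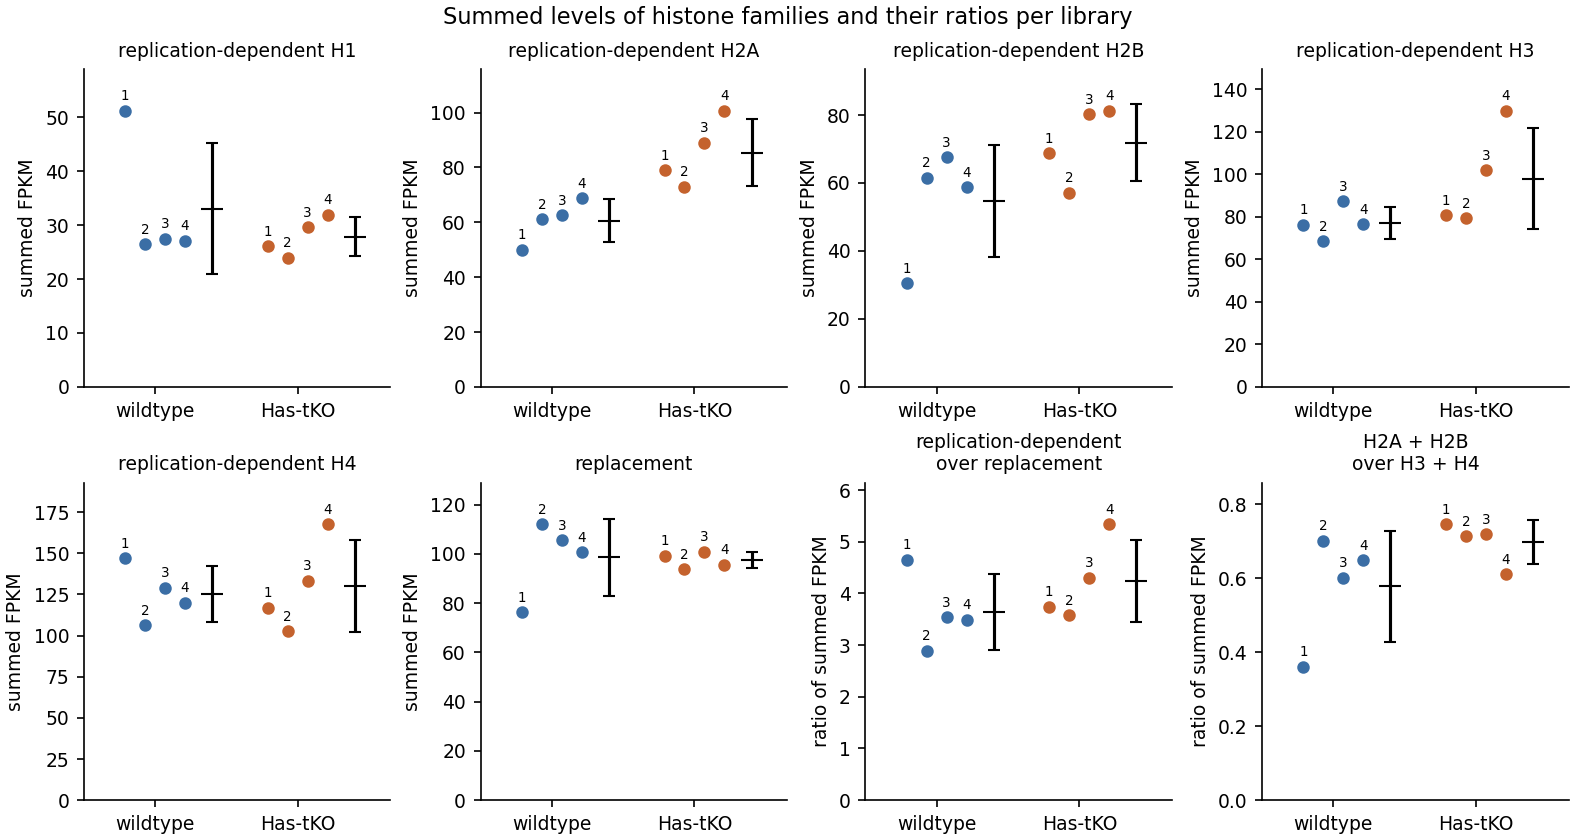
Summed FPKM of each replication-dependent family and of the replacement genes, and 2 ratios of such sums, in each library, numbered by replicate, with the mean and SD of each group (n = 4). Values are unscaled. Summed H2A is higher in all 4 Has-tKO libraries and the replacement sums overlap (after scaling the H2A ranges overlap and the replacement ranges do not), and wildtype 1 is the highest for H1 (51.2) and the lowest for H2B (30.5).

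Position within the clusters was read from the annotation of another build and used for order only. In the chromosome 13 block from H2bc13 to H2ac11, 21 genes tested with a position there had a median log2 fold change of 0.50 (0.25 scaled). In 6 of them all Has-tKO values lay above all wildtype values, unscaled. H2bc24, for which the same held, had no position in that annotation and was left out of the blocks. In the block from H4c8 to H1f1 on the same chromosome, 24 genes tested had a median of 0.15 (-0.08 scaled). In it 2 genes lay fully above, H3c3 and H2bc9, and for H2bc9 the filter fixed this. Over all genes tested the median was 0.16 unscaled and -0.03 scaled, and 12.0% lay fully above unscaled. After scaling, H3c3 alone of both blocks stayed fully above and H2bc8 alone lay fully below, both in the second block. The first block held 14 H2A and H2B genes of 21 and the second 8 of 24. Within the first, H2A and H2B genes had a median of 0.56 and the others 0.26, and within the second these were 0.32 and 0.03.

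Genes that make, process and handle histone mRNA and protein were read from the same fit. Of 19 genes for histone mRNA synthesis and 3′ end processing, 15 are named on a locus and 14 of these were tested. None was called in either direction, unscaled or scaled (median log2 fold change 0.22 unscaled, 0.03 scaled). Srrt, which acts with the cap-binding complex, had the smallest p of the list (log2 fold change 0.52, limma adjusted p = 0.109). Slbp and Npat fall outside the rule and are named for their roles. Slbp, the stem-loop binding protein, had 0.938 ± 0.268 in wildtype and 1.14 ± 0.0979 FPKM in Has-tKO (n = 4 each, limma adjusted p = 0.652), and Npat, the coactivator of histone gene transcription, differed by 0.11 (limma adjusted p = 0.835). Of 22 histone chaperone genes, 16 are named on a locus and 14 of these were tested. None was called (0.24 unscaled, 0.02 scaled), the smallest p being that of Asf1b (0.50, limma adjusted p = 0.321). Of 4 variants outside the name rule, H2aj, Macroh2a2 and Cenpa were tested and not called, and no locus carries the name Macroh2a1.

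Because replication-dependent histones follow S phase, a list of 30 S phase genes was read beside them. Of these, 27 are named on a locus, and no locus carries the names Pcna, Tk1 or Top2a. None of the 21 tested was called (median 0.32 unscaled, 0.12 scaled), Fen1 and Cdt1 having the smallest p (0.49 and 0.44, limma adjusted p = 0.190 and 0.195). The summed level of the 27 named genes was 45.8 FPKM in wildtype 1, 72.9 to 93.7 FPKM in the other wildtype libraries and 91.4 to 104 FPKM in Has-tKO. Unscaled, the S phase median stood 0.16 above that of all genes, and the replication-dependent median 0.13 above it. The Has-tKO libraries with the highest replication-dependent sums, 3 and 4, had S phase sums of 95.6 and 91.4 FPKM. Has-tKO 1 and 2 had 96.9 and 104 FPKM. The part of S phase in the histone values was not tested. In bulk RNA, fewer cells of a type and less RNA per cell cannot be told apart. Over the 8 libraries the genes whose levels followed the replication-dependent sum most closely were Atp5l, Stk11, Pfn1, Ndufa11 and Ube2n-ps1 (Pearson r 0.936 to 0.971), a description in which Has-tKO 4 was the highest library for all 5.

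Markers of other cell types were read from the same fit. Of 21 macrophage and myeloid markers, 17 are named on a locus and 15 of these were tested. In Has-tKO 3 rose, Cx3cr1, Spi1 and Cd52 (Cx3cr1 alone after scaling). The 17 named genes summed to 371 to 632 in wildtype and 608 to 1003 FPKM in Has-tKO. Of 10 osteoblast markers, no locus carries the names Col1a1, Col1a2, Sp7, Spp1 or Bglap, so these were not read. The other 5 were tested with no call unscaled, and Alpl and Ibsp fell after scaling. Runx2 and Phex were lower and Dmp1 higher (0.62 unscaled, 0.39 scaled), none of them called. The 5 summed to 254 to 537 in wildtype and 175 to 260 FPKM in Has-tKO. These ranges overlapped, and Ibsp and Alpl held most of the sum. None of 6 mesenchymal stroma markers tested was called, and the sums of the 7 named on a locus overlapped. Endothelial markers summed to at most 1.11 FPKM, with Emcn at or near 0. The part of these cells in the histone values was not tested.

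The 16 members below the filter were low or erratic. H1f7, H1f8 and H2bw2 apart, 13 were compared by an exact two-sided permutation test over samples, and the lowest p was 0.143, where 4 against 4 libraries allow no p below 0.029. H3c13 measured 5.24 FPKM in wildtype 1 and was listed at 0 in the other 7 libraries. H3c15 measured 7.73 FPKM in wildtype 3 and 0.153 to 0.334 FPKM in the other wildtype libraries, and 6.51, 0.0134, 1.75 and 0.310 FPKM in Has-tKO. Of the windows of H3c13, H3c15 and H2ac19, 79.7%, 63.5% and 100% occur in another gene model. These 3 were named after their values were seen.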

How the data were processed

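The deposited table holds FPKM values for 76557 loci, made by the authors with bcl2fastq, fastp, HISAT2, StringTie and DESeq2 on the builds GRCm39 and hg38, per the submitters' processing notes. Versions and the role of hg38 were not given in the sources used here. Nextera libraries record no strand, so overlapping antisense genes cannot be told apart. Columns were assigned by their header names. No count table was used, which leaves depth unknown and values without a counting error. The share of low values within 0.05 of a whole multiple of 1 read (11.0% to 15.5%, chance 10%) did not allow recovery of reads.

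Values were transformed as log2(FPKM + 1), which understates changes of genes near 1 FPKM. Loci with a name (the one of highest mean for 67 names on several) that reached 1 FPKM in 4 or more libraries were fitted with limma 3.58.1 in R 4.3.3 (genotype only, empirical Bayes with trend), two-sided with Benjamini-Hochberg adjustment at 0.05, and without scaling. Scaling by median ratios, pseudocount 0.1, no filter, a 5 FPKM filter, summed loci, a replicate block and leaving out libraries were the alternatives; leaving out libraries after scaling was added after the data were seen. The script was tested on simulated data. The rule names the members called either way, all replacement members and the 3 most abundant replication-dependent members of each family (23 genes), and 7 were added after their values were seen. Members and lists were chosen with earlier results of these data known. The design put all unlisted names in the germ line class; H3f3c and H3f3aos were moved to a class of their own because neither is a germ line gene. Replication-dependent names of RefSeq that no locus carries, such as H1f4 and H2bc4, were not analysed here. Transcripts (GENCODE M21) and promoters (RefSeq) are of GRCm38.p6, not the build of the values, and served for names, order and sequence only. Same-numbered libraries deviated together in 1 of 4 pairs (correlation above 0.1), and differently numbered libraries in 6 of 12. The numbers were therefore not used as pairs in the main fit, though 4 libraries per group cannot exclude a pairing.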

Additional observations from a re-analysis of the deposited data

Results flagged for a closer look

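Of 78 groups of 4 values checked (members named and family sums), 10 held a library whose gap to its nearest neighbour was too large a part of the range for a sample of 4. Of these, 5 came from the 14 groups of members named after their values were seen, which chance does not describe. The other 64 groups held 5, where chance gives about 1 in 20, and the H1 sum among them repeats H1f2. Wildtype 1 accounted for 5 and Has-tKO 4 for 3. Wildtype 1 was high for H1f2 (43.2 FPKM, others 16.5 to 17.8), for the summed replication-dependent H1 genes (51.2 FPKM, others 26.4 to 27.4), for H2ac19 (2.73 FPKM, others 0.479 to 0.836) and for H3c13 (5.24 FPKM, others 0), and low for H2bc8 (7.97 FPKM, others 15.3 to 15.6). Has-tKO 4 was high for H3c11 (48.0 FPKM, others 15.1 to 18), for H3f3c (42.9 FPKM, others 9.75 to 10.6) and for H4c12 (27.9 FPKM, others 16.5 to 18.1). The other 2 were H2ac19 in Has-tKO 3 (5.15 FPKM, others at most 0.692) and H3c15 in wildtype 3 (7.73 FPKM, others 0.153 to 0.334). No cause was tested.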

How the results depend on the processing

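The count of members called higher in Has-tKO (1) was 0 with median-ratio scaling, a pseudocount of 0.1, no filter and the replicate block with scaling. It was 1 with scaling without wildtype 1, and 0 to 1 when 1 library was left out. With the 5 FPKM filter it was 0, but H2ac13 (at most 3.38 FPKM) is removed by that filter and was not tested there. The count of members called lower (0) was 1 with scaling, also without wildtype 1, and 0 to 1 when 1 library was left out unscaled. Over all genes, the count higher (157) was 96 with pseudocount 0.1, 2 without a filter, 18 with the block and scaling, and 5 to 327 when 1 library was left out. The count lower (19) was 129 scaled, 187 scaled without wildtype 1, 0 without a filter, 87 without wildtype 1 and Has-tKO 4, and 0 to 98 when 1 library was left out. The replicate block on number, a pairing that the labels do not give, called 1 member higher, H2ac14 (limma adjusted p = 0.049), in place of H2ac13 (limma adjusted p = 0.092). Over all genes it called 120 higher. The median of replication-dependent members (0.29) was 0.075 with scaling, with and without the block, and 0.17 to 0.36 when 1 library was left out unscaled. Its distance from the median of all genes (0.13) ran from -0.015 to 0.20 in the same leave-one-out fits. The median of replacement members ran from -0.13 to 0.10. The mean ratio of replication-dependent over replacement FPKM ran from 3.31 to 3.90 in wildtype and 3.88 to 4.46 in Has-tKO. With scaling, with and without the block, uncalled changes turned negative for H1f5 (-0.18), H2ac20 (-0.018), H2ax (-0.087), H2az1 (-0.18), H3c2 (-0.20), H3f3a (-0.23), H3f3b (-0.011) and H4c18 (-0.031). Scaled without wildtype 1, those of H1f5 (-0.14), H2az1 (-0.26), H3c2 (-0.068) and H3f3a (-0.23) were negative, and without wildtype 1 and Has-tKO 4 those of H1f5 (-0.041), H2az1 (-0.10) and H3f3a (-0.10). Leaving out 1 library unscaled gave ranges through 0 for H1f5 (-0.12 to 0.14), H2az1 (-0.17 to 0.20), H2az2 (-0.29 to 0.029), H3c2 (-0.055 to 0.13), H3f3a (-0.13 to 0.10) and H4c17 (-0.23 to 0.093). The cause of these shifts was not tested. Without read counts, depth sets limits that cannot be stated, and genes near 1 FPKM are the least precise.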
